A study of Mus musculus with 6 samples.

Results

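Genes peaking at day 3 were followed in embryoid bodies (EBs) of R1 mouse embryonic stem (ES) cells treated with retinoic acid (RA). A gene was included when its day 3 mean lay at least 0.7 above both its day 0 mean and its day 4 mean on a log2 scale, its day 3 mean was 6 or more, and both day 3 arrays lay above the 4 other arrays. Each gene was read from its brightest probe set, and Hox genes, symbols starting with Mir or Snor, Malat1 and 7 red cell genes were left out by name. Of 19938 genes, 91 met the limits and 27 of these were left out by name (2 Hox genes, 8 others named in the rule, 16 symbols starting with Mir and 1 starting with Snor). The remaining 64 genes comprised 58 protein-coding genes, 4 long non-coding RNAs, 1 gene typed as miscellaneous RNA and 1 T-cell receptor variable segment. The values that chose these genes are the day 3 levels against day 0 and day 4, and they are given below as a description without a test.

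The 3 groups measured were EBs before RA (day 0, EBs 4 days old), and EBs after 3 days (day 3) and 4 days (day 4) in 2 μM RA. All came from R1, an established ES cell line, and no other treatment or genotype was used. Each day had 2 Affymetrix Mouse Gene 1.0 ST arrays, and the values are log2 intensities after Robust Multichip Average (RMA), a procedure that brings the distributions of all arrays together. Whether the 2 arrays of a day stand for separate cultures is not given in the labels, so a p-value here measures array-to-array spread, which may be technical. EBs kept without RA for the same time were not analysed here, so effects of RA and of time cannot be told apart.

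When ES cells are grown as floating EBs they lose pluripotency and give rise to early cell types of the embryo, among them primitive red cells, vessel cells, mesenchyme and neural cells. RA binds nuclear receptors that act on target genes directly, and the proteins made from those genes act on others later, so a transcript may appear, remain or decline while RA is present. The genes described here encode receptors, guidance molecules, matrix proteins, transcription factors and blood cell proteins. They share a transcript level that was highest on the middle of the 3 days measured. No array was taken between day 0 and day 3, so an earlier and higher level would be missed.

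Over the whole series, arrays of the same day correlated at 0.999, and arrays of day 4 and day 3 at 0.992 to 0.994 (Pearson's r across genes; genes are no replicates). Markers of ES cells averaged 6.64 to 6.93 at day 4 and 9.02 to 9.12 at day 0, with 5 of 5 lower at day 3 than at day 0. Markers of red cells, of which 4 of 5 were measured, were above 6 on every day, with a mean level of 7.51 to 7.55 at day 0, 11.85 to 12.01 at day 3 and 9.80 to 10.03 at day 4. Macrophage markers stayed low, with 4 of 5 below 6 on all 3 days, and the neuron markers averaged 7.56 to 7.59, 7.55 to 7.59 and 7.81 to 7.86 on the successive days. The neuron average hides opposite changes, since 1 of 5 rose and 3 fell at day 3 relative to day 0 (limma). These changes ran from 2.49 for Dcx to −1.84 for Stmn2. In EBs as a mixture, fewer cells of a type and less RNA per cell cannot be told apart.

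**Figure D1:**
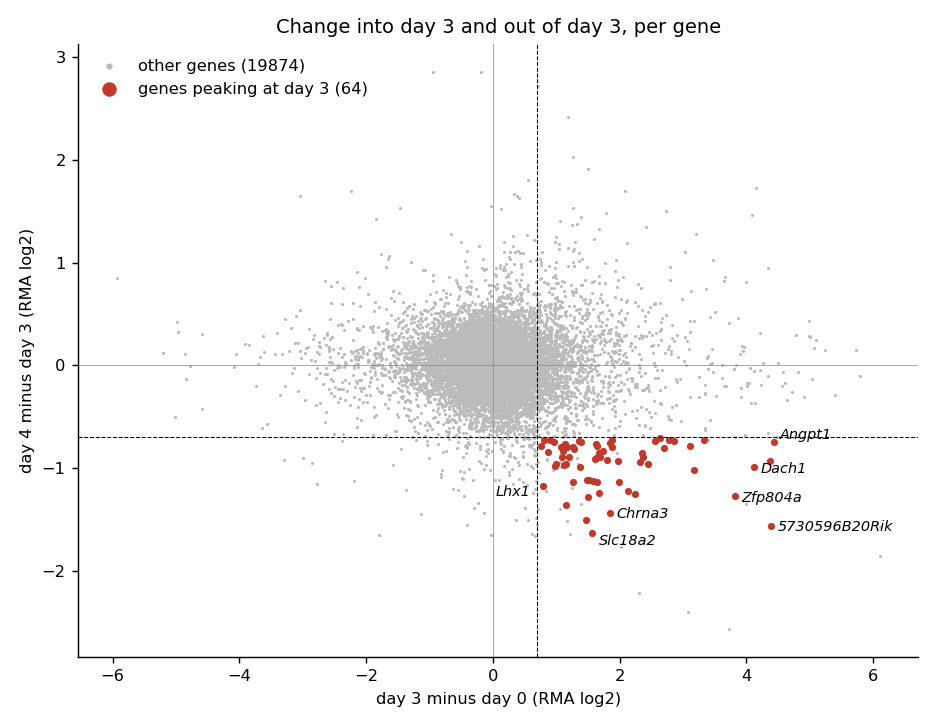
Day 3 minus day 0 (x axis) against day 4 minus day 3 (y axis), both in RMA log2 units, for each gene. Red points are the 64 genes peaking at day 3, grey points the other genes, and dashed lines the limits of 0.7, and grey points beyond both lines failed another part of the rule or were left out by name.

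The 64 genes lay 0.77 to 4.43 higher at day 3 than at day 0 on the log2 scale, with a median of 1.64, and 0.70 to 1.63 lower at day 4 than at day 3, with a median day 4 minus day 3 of −0.89. All 64 passed the limma test at an adjusted p of 0.05 or below in both comparisons, and these counts follow from the rule. Over all genes, 23.8% were higher and 28.1% lower at day 3 than at day 0 (51.9% in all), and 15.8% were higher and 12.2% lower at day 4 than at day 3 (28.1% in all). The gap between the 2 arrays of a day was small beside these differences, with a median of 0.13 at day 0, 0.15 at day 3 and 0.07 at day 4. It reached 0.67 for Mfsd2b at day 3, the widest gap among these genes.

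The limit of 0.7 cut through a continuous range. Just inside lay Zup1, which encodes a protease that removes ubiquitin chains, with means of 7.52 at day 0, 8.34 at day 3 and 7.61 at day 4, together with Otogl and Meox1. Just outside lay the ephrin receptor gene Epha7, with day 0 arrays of 7.88 and 7.66, day 3 arrays of 11.60 and 11.58 and day 4 arrays of 10.96 and 10.83, and the genes Zmym6 and E330013P04Rik. Epha7 differed more between day 3 and day 0 than most genes inside the limit, and missed it only by its day 4 level.

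**Figure D2:**
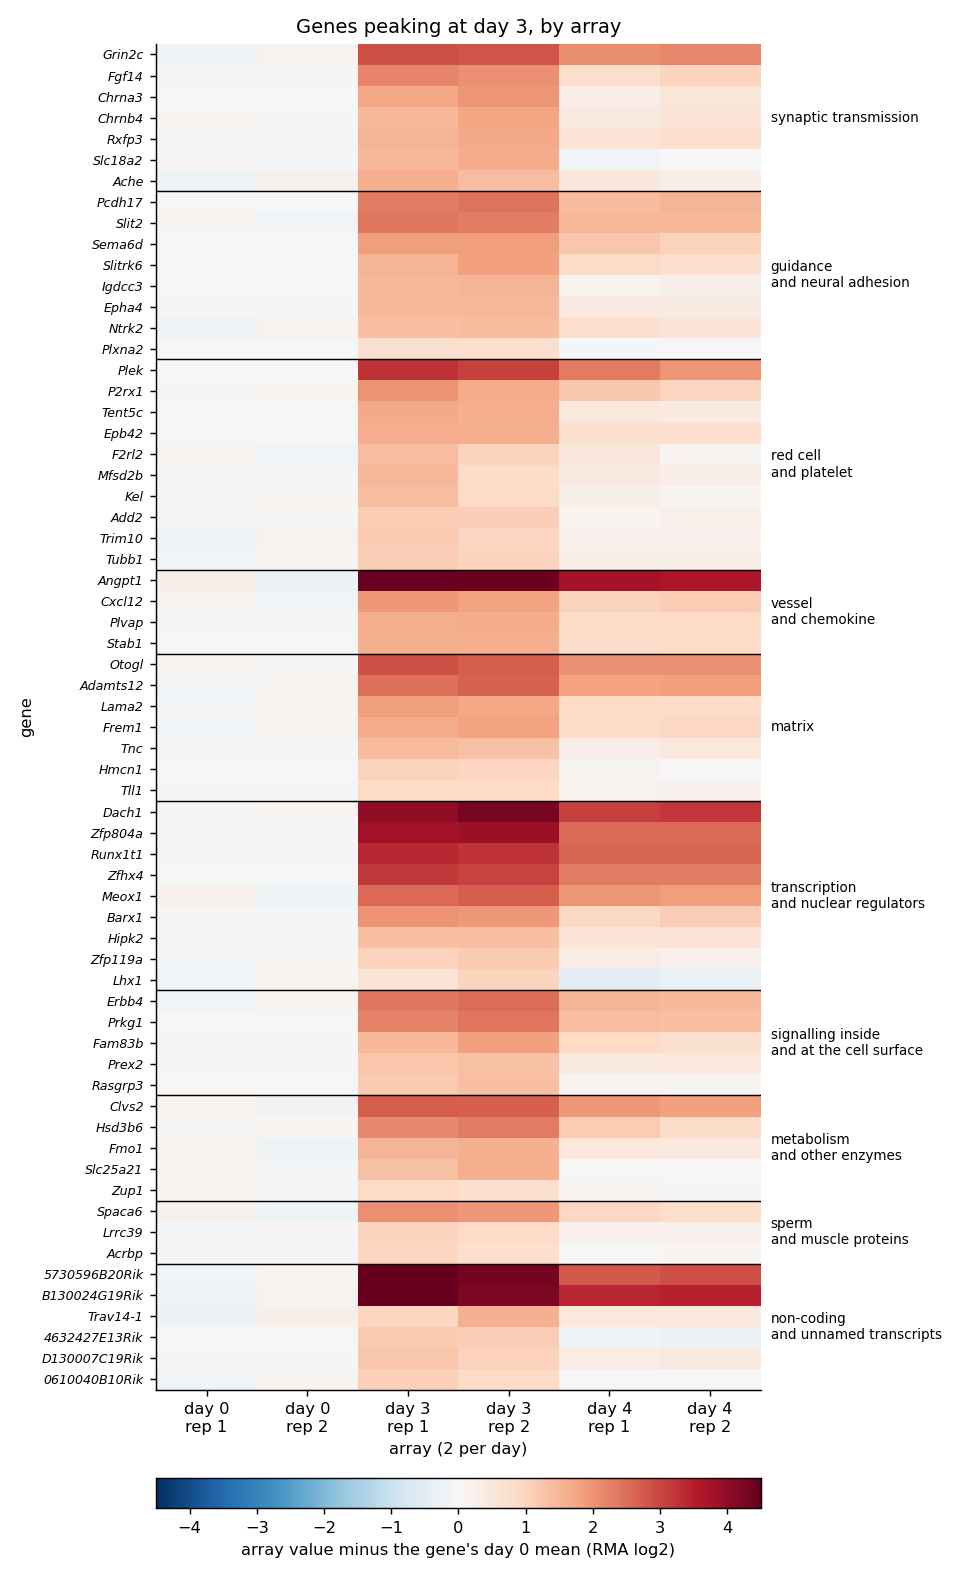
Value on each of the 6 arrays minus the gene's day 0 mean (RMA log2), for the 64 genes, grouped by role. Columns run from day 0 to day 4, and red marks levels above day 0. The 2 day 3 columns are the darkest in every row, while day 4 ranges from levels near day 0 (Slc18a2, Hmcn1) to levels far above it (Angpt1, Dach1).

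Day 4 was then compared with day 0, a difference on which the rule set no limit, although the same arrays entered it. The rule asked for a gain over day 0, so the shares and medians below are a description and not an independent test. At day 4, 48 of the 64 genes (75%) were still higher than at day 0, 1 (1.56%) was lower and 15 did not pass the test (limma, adjusted over 19938 genes). Over all genes, 25.9% were higher and 25.6% lower at day 4 (51.5% in all). Centring each array on its median moved the median gene to −0.148, so the direction of a smaller difference is not settled. The median day 4 minus day 0 was 0.67 for these genes, against −0.0013 over all genes, and both day 4 arrays lay above both day 0 arrays in 55 of the 64. With each of the 6 arrays left out in turn, the number higher was 40 to 47. The number lower was 0 without day 0 replicate 1, without day 0 replicate 2 or without day 4 replicate 2, and 2 without either day 3 array.

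The genes differed widely in how much of the day 3 level remained. Expressed as a share of the day 3 gain over day 0, the median gene kept 43.2% at day 4, with a range of −48.2% to 83.1%. RMA understates differences from levels below 6, where 20 of the 64 genes had their day 0 mean, so these shares and the order of the genes are approximate. In 10 genes day 4 stayed 2 or more above day 0. The highest were Angpt1 (day 4 minus day 0 of 3.68, SE 0.15, limma adjusted p = 1.38e-06), B130024G19Rik (3.45, SE 0.12) and Dach1 (3.13, SE 0.11). Next came 5730596B20Rik (2.83), Runx1t1 (2.60), Zfp804a (2.54), Zfhx4 (2.32), Plek (2.15), Grin2c (2.12) and Otogl (2.06). A further probe set of Otogl differed less, with averages of 5.09 at day 0 and 5.49 at day 4. At the other end, 12 genes lay within 0.2 of their day 0 mean, among them Slc18a2 (−0.06), Slc25a21 (−0.02), Plxna2 (−0.02), 0610040B10Rik (0.01), Acrbp (0.02) and Hmcn1 (0.04).

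**Figure D3:**
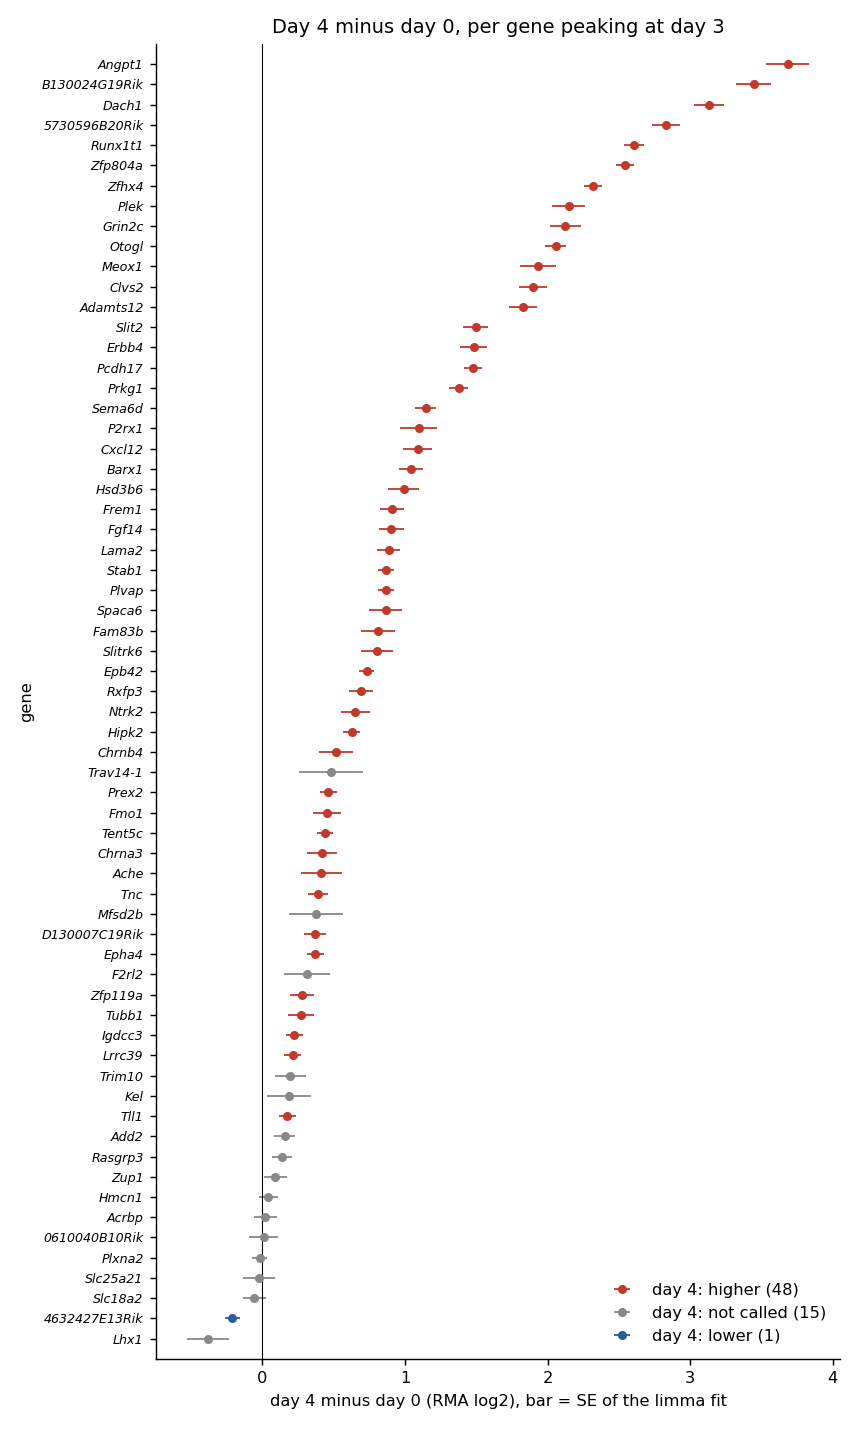
Day 4 minus day 0 (RMA log2) for each of the 64 genes, in order of size, with bars for the standard error of the limma fit. Red points were higher at day 4 (48), grey points did not pass the test (15) and the blue point was lower (1). The genes run from −0.38 for Lhx1 to 3.68 for Angpt1.

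Genes grouped under synaptic transmission included the gene with the largest peak as measured by the smaller of its differences. A role names a function of the protein, and which cells held the transcript was not tested. Slc18a2, which encodes the vesicular monoamine transporter VMAT2, read 7.12 and 6.99 on the day 0 arrays, 8.54 and 8.71 at day 3, and 6.94 and 7.06 at day 4. The day 4 arrays overlapped the day 0 arrays, and day 4 minus day 0 was −0.06 (SE 0.08, limma adjusted p = 0.598). Of the other vesicular transporters measured, Slc18a1 averaged 7.18, 7.24 and 7.20 on days 0, 3 and 4, and the acetylcholine transporter gene Slc18a3 averaged 6.62, 6.04 and 6.18, and neither had both day 3 arrays highest.

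Chrna3 and Chrnb4 encode the alpha3 and beta4 subunits of the nicotinic acetylcholine receptor that carries fast transmission in autonomic ganglia. Chrna3 read 7.94 and 7.88 on the day 0 arrays, 9.64 and 9.89 at day 3, and 8.21 and 8.44 at day 4. Chrnb4 read 8.23 and 8.03, then 9.64 and 9.93, then 8.55 and 8.74 on the same days. In both genes the 3 days did not overlap, day 3 replicate 2 was the highest array, and day 4 lay between day 3 and day 0. Day 4 minus day 0 was 0.42 for Chrna3 (SE 0.11, limma adjusted p = 0.0125) and 0.52 for Chrnb4 (SE 0.12, adjusted p = 0.00765). These calls were lost without day 0 replicate 2 (adjusted p = 0.0654 and 0.0529) or without day 4 replicate 2 (0.0787 and 0.0558), and that of Chrna3 also with arrays centred on their median (0.27, adjusted p = 0.0651).

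These 2 genes are neighbours on the chromosome, in the order Chrna5, Chrna3, Chrnb4 in the RefSeq table of GRCm38.p6. Chrna5, which encodes a further subunit and was looked at for its position, read 5.64 and 5.38 on the day 0 arrays, 7.16 and 7.20 at day 3, and 6.61 and 6.55 at day 4. It was also highest at day 3 and missed the limit with a day 4 minus day 3 of −0.60 (limma adjusted p = 0.00314). Of 16 nicotinic receptor genes measured, these 3 had both day 3 arrays highest, and 7 stayed below 6 on every day. Chrna4 was highest at day 4 (7.72, 8.21 and 8.59 on days 0, 3 and 4) and Chrna7 was highest at day 0 (8.13, 7.17 and 6.99).

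The promoters of the 2 neighbouring peaking genes are shown because the genes are adjacent. Their shared peak follows from the rule that chose both. They are the 250 bases before the start of each gene from RefSeq on GRCm38.p6, both on the minus strand, at chr9:55026563-55026812 for Chrna3 and chr9:55048545-55048794 for Chrnb4. Capitals mark GGGCGG (the GC box) or CAGCTG (an E-box), searched on both strands.
Chrna3: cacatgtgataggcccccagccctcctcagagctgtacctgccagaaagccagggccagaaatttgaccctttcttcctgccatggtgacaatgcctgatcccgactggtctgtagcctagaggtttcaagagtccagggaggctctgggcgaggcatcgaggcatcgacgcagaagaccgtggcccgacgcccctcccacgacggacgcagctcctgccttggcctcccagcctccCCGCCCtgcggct
Chrnb4: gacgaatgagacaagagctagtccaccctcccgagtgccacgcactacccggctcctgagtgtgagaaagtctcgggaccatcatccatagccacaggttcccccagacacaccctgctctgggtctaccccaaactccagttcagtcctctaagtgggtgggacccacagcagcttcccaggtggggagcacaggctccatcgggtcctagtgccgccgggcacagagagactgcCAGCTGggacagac
Chrna3 holds a GC box, as its reverse complement, with the first base 13 bases before the start, and no CAGCTG. Chrnb4 holds CAGCTG with the first base 14 bases before the start, and no GC box. In windows of this length, 32.7% of all 32851 promoters hold GGGCGG and 13% hold CAGCTG. The bases before the start were 63.2% and 61.2% G or C.

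Other genes of this role were the acetylcholine-degrading enzyme gene Ache, the NMDA receptor subunit gene Grin2c, the sodium channel partner gene Fgf14 and the relaxin-3 receptor gene Rxfp3. Ache read 5.80 and 6.19 on the day 0 arrays, 7.64 and 7.40 at day 3, and 6.52 and 6.29 at day 4. Its day 4 arrays lay above its day 0 arrays by little (0.41, SE 0.14, limma adjusted p = 0.0469), and the call was lost without each of 5 arrays, with adjusted p-values of 0.242 without day 0 replicate 1, 0.226 and 0.0551 without day 4 replicates 1 and 2, and 0.0501 without either day 3 array. It was also lost with arrays centred on their median (0.27, adjusted p = 0.157), cyclic loess (0.0752) and the replicate number as a block (0.0678). Grin2c read 6.46 and 6.80, 9.53 and 9.45, and 8.73 and 8.79 on days 0, 3 and 4, and was the only gene of 6 NMDA receptor subunit genes measured with both day 3 arrays highest. Fgf14 (5.21 and 5.31, 7.47 and 7.31, 6.06 and 6.27) kept 0.90 over day 0 at day 4. Its relative Fgf11 instead was highest at day 4 (6.64, 8.98 and 9.73 on days 0, 3 and 4), and Fgf13 was highest at day 0 (8.0, 6.43 and 6.53). Rxfp3 averaged 6.11, 7.72 and 6.81. Of the 7 genes of this role, 6 were higher at day 4 than at day 0 and Slc18a2 did not pass.

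The neuron list as a whole did not follow these receptors. It held 41 measured genes beside those peaking at day 3, of which 7 rose and 20 fell at day 3 relative to day 0, and 6 rose and 3 fell at day 4 relative to day 3 (limma). Both day 3 arrays were highest in 3 of the 41, and over all genes in 12%. Of all genes, 23.8% rose and 28.1% fell at the first step, and 15.8% rose and 12.2% fell at the second.

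**Figure D4:**
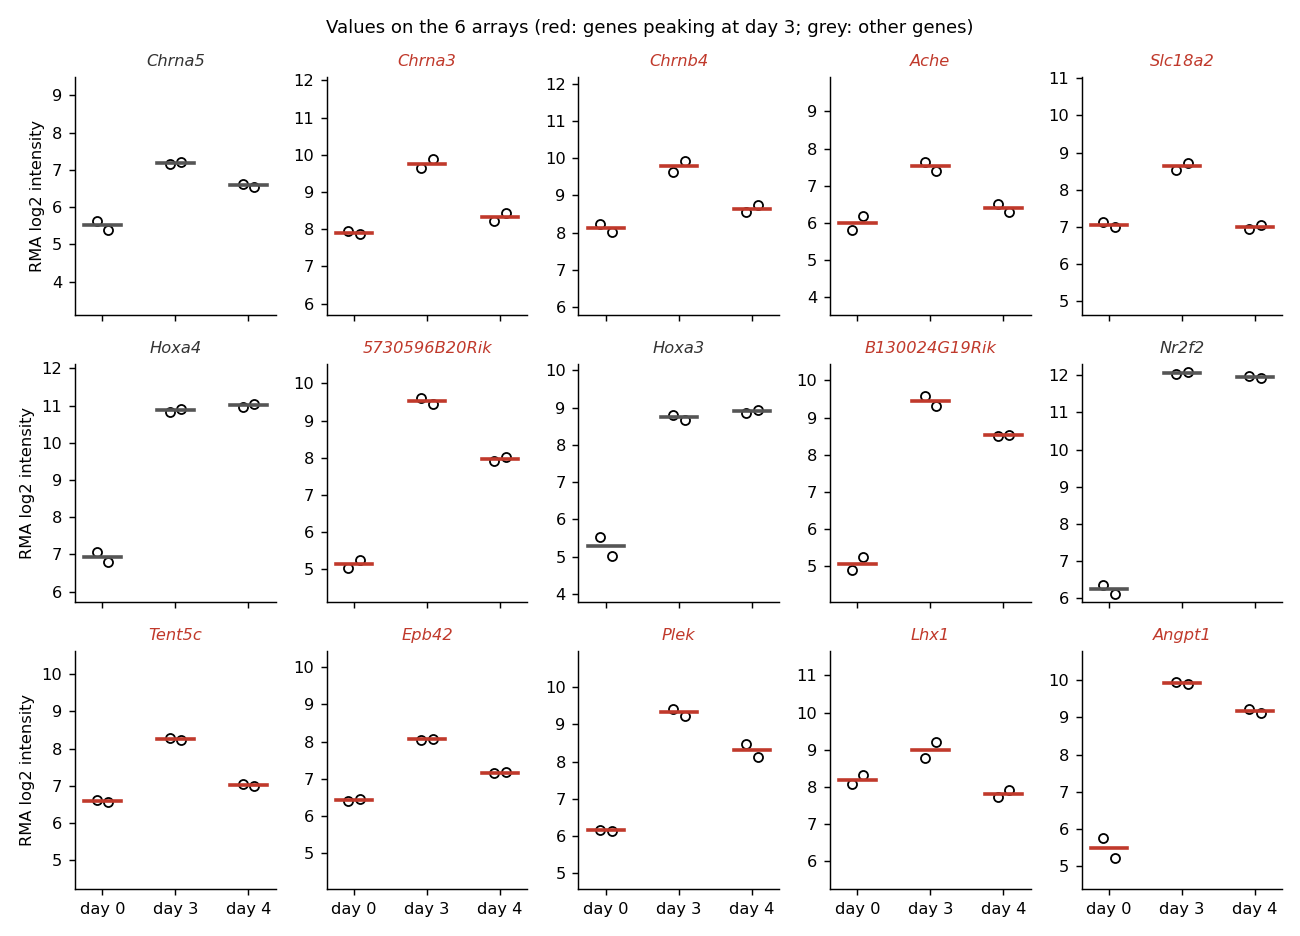
RMA log2 intensity on the 6 arrays (open circles) and the mean of each day (bars) for 15 genes, each panel spanning the same log2 range. Red bars and names are genes peaking at day 3, and grey ones are neighbours on the chromosome that did not meet the rule. Chrna3 and Chrnb4 peak with their neighbour Chrna5, while 5730596B20Rik and B130024G19Rik drop at day 4 beside Hox genes and Nr2f2 that stay high.

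Guidance and neural adhesion genes comprised ligands, receptors and adhesion proteins. Among the ligands, Slit2, a secreted repellent of growing axons, read 8.14 and 7.87 on the day 0 arrays, 10.39 and 10.32 at day 3, and 9.49 and 9.51 at day 4, and the transmembrane semaphorin gene Sema6d read 7.71 and 7.72, 9.60 and 9.58, and 8.96 and 8.76. Both stayed above day 0 at day 4, Slit2 by 1.50 (SE 0.09, limma adjusted p = 6.87e-06) and Sema6d by 1.15 (SE 0.07). Slit3 averaged 10.10, 10.35 and 10.33 and Slit1 6.18, 6.44 and 6.28 on days 0, 3 and 4, a narrower range than that of Slit2.

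Among the receptors, Epha4, which binds ephrins, read 9.08 and 8.97 on the day 0 arrays, 10.51 and 10.51 at day 3, and 9.38 and 9.41 at day 4. Plxna2, a receptor for semaphorins, had the smallest gain of the 64 genes, with 8.96 and 8.98, 9.70 and 9.76, and 8.92 and 8.97 on the same days. The other receptors were Ntrk2, the receptor of brain-derived neurotrophic factor (5.55 and 5.85, 7.07 and 7.13, 6.44 and 6.28), and Igdcc3, an immunoglobulin superfamily protein related to the netrin receptor Dcc (8.67 and 8.64, 10.13 and 10.18, 8.82 and 8.93). Epha4 and Igdcc3 were near day 0 again at day 4, by 0.37 (limma adjusted p = 0.00124) and 0.22 (0.0162), and Plxna2 lay at −0.02 (0.786). The call of Igdcc3 did not hold when day 0 replicate 2 (adjusted p = 0.0758) or day 4 replicate 2 (0.0907) was left out, nor with arrays centred on their median (0.08, adjusted p = 0.304). Ntrk2 stayed 0.65 above day 0.

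Some relatives of these receptors had both day 3 arrays highest without meeting the limits. Plxna3 averaged 8.70, 9.12 and 8.78 and Plxna4 9.06, 9.44 and 9.17 on days 0, 3 and 4, while Plxna1 fell over both steps (10.91, 10.36 and 10.10). Among 13 Eph receptor genes, 5 had both day 3 arrays highest, and Epha3 averaged 5.53, 9.87 and 9.22. The adhesion genes Pcdh17, a protocadherin (6.21, 8.58 and 7.68 on average), and Slitrk6, a transmembrane protein of neurites (4.77, 6.46 and 5.57), both remained above day 0 at day 4, and Slitrk6 was below 6 on days 0 and 4. Of the 8 genes of this role, 7 were higher at day 4 than at day 0.

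A list of guidance and adhesion genes held 35 measured genes that were not among the 64. Of these, 21 rose and 7 fell at day 3 relative to day 0, and 5 rose and 14 fell at day 4 relative to day 3 (limma). Both day 3 arrays were highest in 16 of the 35, beside 12% of all genes. Of all genes, 23.8% rose and 28.1% fell at the first step, and 15.8% rose and 12.2% fell at the second. Examples that rose and then fell were Cdh6 (2.41, then −0.58), Robo2 (1.51, then −0.52) and Efna5 (0.48, then −0.72), while the semaphorin gene Sema3c rose by 4.58 and its later change of −0.06 did not pass.

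Red cell and platelet genes formed the role with the most genes, 10. Among proteins of the red cell membrane, Epb42 (protein 4.2 of the membrane skeleton) read 6.42 and 6.46 on the day 0 arrays, 8.06 and 8.08 at day 3, and 7.16 and 7.18 at day 4. Add2, which encodes beta adducin, read 6.83 and 6.95, 8.03 and 8.0, and 6.97 and 7.13. Kel, which encodes the Kell blood group protein, read 5.38 and 5.53, 6.85 and 6.36, and 5.73 and 5.55. Epb42 kept 0.73 over day 0 (SE 0.05, limma adjusted p = 1.70e-05), while day 4 minus day 0 was 0.16 for Add2 (0.117) and 0.18 for Kel (0.375).

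Trim10, a ubiquitin ligase gene of the erythroid lineage, averaged 5.51, 6.59 and 5.71 on days 0, 3 and 4, and Mfsd2b, an exporter of sphingosine-1-phosphate in red cells and platelets, averaged 6.36, 7.54 and 6.74. Tent5c encodes a poly(A) polymerase and read 6.61 and 6.56, 8.30 and 8.24, and 7.06 and 7.0, which left it 0.44 above day 0 (limma adjusted p = 0.000381). Day 4 minus day 0 of Trim10 was 0.20 (0.179) and that of Mfsd2b 0.38 (0.145), and the 2 day 3 arrays of Mfsd2b differed, at 7.87 and 7.20.

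Among the platelet genes, Plek, which encodes pleckstrin, a substrate of protein kinase C, read 6.17 and 6.14 on the day 0 arrays, 9.42 and 9.23 at day 3, and 8.48 and 8.13 at day 4. P2rx1, an ATP-gated channel, read 5.34 and 5.49, 7.44 and 7.09, and 6.63 and 6.39. These 2 genes stayed well above day 0 at day 4, by 2.15 (SE 0.12) and 1.09 (SE 0.13). Tubb1, the beta1 tubulin of platelets, lay 0.27 above day 0 (limma adjusted p = 0.0376), and F2rl2, a thrombin receptor, 0.31 (0.150, with day 4 arrays of 7.65 and 7.28 and day 0 arrays of 7.27 and 7.03). The call of Tubb1 was lost with each of 5 arrays left out: adjusted p = 0.176 without day 0 replicate 1, 0.108 and 0.129 without day 4 replicates 1 and 2, and 0.0503 without either day 3 array. It was also lost with arrays centred on their median (0.12, adjusted p = 0.283) and with cyclic loess (0.0630). In all, 5 of the 10 genes were higher at day 4 than at day 0 and 5 did not pass.

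The 4 measured markers of red cells, Hba-x, Hbb-y, Hbb-bh1 and Alas2, also met the limits and were left out by name. That these markers and the 10 genes peaked on the same day therefore follows from the rule. Day 4 minus day 3 of these markers was −1.58, −1.85, −2.40 and −2.21. Within a day, replicate 1 was above replicate 2 in 4 of the 10 genes at day 0, 9 at day 3 (median gap 0.19) and 7 at day 4 (0.11). Over all 64 genes these counts were 30, 35 and 31. The part of red cell content and of the arrays in these results was not tested.

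A list of red cell genes beside those left out by the rule held 58 measured genes that were not among the 64. At day 3 relative to day 0, 26 rose and 19 fell. At day 4 relative to day 3, 7 rose and 22 fell (limma), with both day 3 arrays highest in 17. Over all genes, 23.8% rose and 28.1% fell at the first step and 15.8% rose and 12.2% fell at the second. Both day 3 arrays were highest in 12% of all genes. Ermap (0.70, then −0.63), the haem synthesis gene Ppox (1.12, then −0.61) and the ankyrin gene Ank1 (0.79, then −0.41) rose and then fell. The blood transcription factor gene Gata1 changed by 0.11 at day 3, which did not pass, and fell by 1.12 at day 4, and Tal1 fell over both steps (−1.04, then −0.63). Of 14 further megakaryocyte and platelet genes, 11 rose at day 3 and 0 fell, and 6 fell at day 4 relative to day 3 and 0 rose. Itgb3, the platelet integrin beta3 gene, rose by 2.40 and fell by 0.59, while Pf4 rose by 2.26 with a later change of −0.20 that did not pass.

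The 5 promoters of this role that hold AGATAA, the sequence bound by the GATA factors of blood cells, are shown with that motif in capitals (TTATCT where it lies on the other strand). They are the 250 bases before each start from RefSeq on GRCm38.p6, for Epb42 at chr2:121036878-121037127 and Kel at chr6:41704326-41704575 on the minus strand, and for Trim10 at chr17:36869324-36869573, F2rl2 at chr13:95696670-95696919 and P2rx1 at chr11:72998895-72999144 on the plus strand.
Epb42: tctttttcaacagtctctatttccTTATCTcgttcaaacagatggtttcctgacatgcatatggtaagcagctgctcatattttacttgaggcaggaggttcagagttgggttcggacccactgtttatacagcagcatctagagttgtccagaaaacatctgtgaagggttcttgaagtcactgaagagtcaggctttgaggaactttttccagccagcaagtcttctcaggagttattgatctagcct
Kel: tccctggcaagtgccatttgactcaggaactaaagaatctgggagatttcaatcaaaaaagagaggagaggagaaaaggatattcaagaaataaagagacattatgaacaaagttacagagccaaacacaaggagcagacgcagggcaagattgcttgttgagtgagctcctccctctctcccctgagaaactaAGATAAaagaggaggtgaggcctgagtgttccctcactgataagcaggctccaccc
Trim10: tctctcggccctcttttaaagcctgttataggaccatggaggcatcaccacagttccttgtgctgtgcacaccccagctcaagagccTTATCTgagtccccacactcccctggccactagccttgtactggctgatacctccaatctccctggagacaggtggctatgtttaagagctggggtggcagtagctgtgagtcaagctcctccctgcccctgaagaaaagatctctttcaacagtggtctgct
F2rl2: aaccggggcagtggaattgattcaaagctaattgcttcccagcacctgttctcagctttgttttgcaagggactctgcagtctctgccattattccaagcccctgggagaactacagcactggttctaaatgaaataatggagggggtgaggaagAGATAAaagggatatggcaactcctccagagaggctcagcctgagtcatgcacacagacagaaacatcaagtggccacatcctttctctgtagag
P2rx1: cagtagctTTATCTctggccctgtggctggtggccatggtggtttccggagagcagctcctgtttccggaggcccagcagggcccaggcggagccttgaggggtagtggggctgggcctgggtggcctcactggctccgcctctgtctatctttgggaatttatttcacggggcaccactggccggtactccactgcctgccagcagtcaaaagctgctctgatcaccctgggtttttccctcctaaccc
The first base of the motif lies 226 bases before the start in Epb42, 56 in Kel, 163 in Trim10, 95 in F2rl2 and 242 in P2rx1. All 10 genes of this role were in the promoter table, and 5 (50%) held AGATAA in this window. Of 51 promoters of the other peaking genes, 4 (7.84%) held it (Hsd3b6, Prkg1, Slc18a2 and Tll1), and of all 32851 promoters 9.99%. In the same window CAGCTG was in 20% of the promoters of this role, 9.8% of those of the other peaking genes and 13% of all. AGATAA is shown out of several motifs searched, for a role drawn up after the values were seen. A match of letters is a description and not evidence of binding.

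Over all peaking genes, 54 of 64 were found in the promoter table, with 61 promoters. Windows ran from 250 bases before to 50 after the start and were searched on both strands. GGGCGG was in 45.9% of these promoters and 35.7% of all promoters, CCAAT in 27.9% and 37.4%, and TATAAA in 9.84% and 13.6%. AGATAA was in 14.8% and 11.2%. AGGTCA, the unit bound by RA receptors and other nuclear receptors, was in 8.20% and 16.3%. A pair of AGGTCA in the same direction was in 0 of the 61 with 5 or 2 bases between, and in 0.00913% of all promoters at each spacing, so a 0 here carries no information. The median promoter was 55.7% G or C, beside 52.7% over all promoters.

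Vessel and chemokine genes were Angpt1, Cxcl12, Plvap and Stab1, and all 4 were still higher at day 4 than at day 0. Angpt1, the ligand of the endothelial receptor Tek, had the largest gain of the 64 genes and read 5.76 and 5.23 on the day 0 arrays, 9.96 and 9.90 at day 3, and 9.23 and 9.13 at day 4. Its relative Angpt2 averaged 6.30, 8.97 and 8.93 with a day 4 minus day 3 of −0.04 that did not pass (limma adjusted p = 0.740), and Tek fell by 0.95 at day 4 relative to day 3. Cxcl12, a chemokine that guides migrating cells, read 7.73 and 7.46, 9.56 and 9.40, and 8.63 and 8.74. Its receptor gene Cxcr4 had its lowest mean at day 3 (10.18, 8.57 and 9.22 on days 0, 3 and 4), and the receptor gene Ackr3 its highest at day 4 (6.95, 8.99 and 9.23).

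Plvap, which encodes the protein of endothelial diaphragms, read 8.06 and 8.16, 9.74 and 9.78, and 8.96 and 9.0 on days 0, 3 and 4. Stab1, a scavenger receptor of vessel lining cells and macrophages, read 6.26 and 6.32, 7.90 and 7.94, and 7.11 and 7.20. Both lay 0.87 above day 0 at day 4 (SE 0.06 each). Stab2 also had both day 3 arrays highest (5.71, 6.60 and 6.03). Of 33 other endothelial genes measured, 17 rose and 12 fell at day 3 relative to day 0. At day 4 relative to day 3, 3 rose and 13 fell, and 10 had both day 3 arrays highest. The shares of all genes were 23.8% and 28.1% at the first step, 15.8% and 12.2% at the second, and 12% highest at day 3. The 6 endothelial markers averaged 8.77 to 8.82 at day 0, 9.76 to 9.88 at day 3 and 9.48 to 9.52 at day 4. These averages hide unlike changes, since 4 markers rose and 1 fell at day 3 relative to day 0 (limma). The changes ran from 4.81 for Emcn to −0.94 for Kdr. The part of endothelial cells in these values was not tested.

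Matrix genes comprised Otogl, Adamts12, Lama2, Frem1, Tnc, Hmcn1 and Tll1. Otogl, which encodes the otogelin-like glycoprotein, read 5.34 and 5.19 on the day 0 arrays, 8.12 and 7.98 at day 3, and 7.32 and 7.33 at day 4. Adamts12, a secreted metalloprotease, averaged 6.08, 8.64 and 7.91, and lies next to Rxfp3, the only other adjacent pair of peaking genes beside Chrna3 and Chrnb4. Lama2, the laminin alpha2 chain of muscle basement membranes, read 6.17 and 6.37, 8.13 and 8.01, and 7.18 and 7.12. Frem1, a basement membrane protein, averaged 6.16, 7.90 and 7.07, and Tnc, the tenascin C gene, averaged 8.67, 10.04 and 9.06.

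Of the 7 matrix genes, 6 were higher at day 4 than at day 0, with a median of 0.88 over the role. The smallest called difference was that of Tll1, a tolloid metalloprotease (0.17, SE 0.06, limma adjusted p = 0.0464). That call was lost with each array except day 0 replicate 1 left out in turn, with adjusted p-values of 0.226 without day 0 replicate 2, 0.0721 without either day 3 array, and 0.119 and 0.138 without day 4 replicates 1 and 2. It was also lost with arrays centred on their median (0.03, adjusted p = 0.679), cyclic loess (0.0998), an intensity trend with robust moderation (0.121) and the replicate number as a block (0.0524). Among relatives, Lama1 averaged 7.91, 8.05 and 7.34, Lama4 9.42, 7.82 and 7.68, and Hmcn2 6.71 on each of the 3 days.

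Hmcn1, which encodes hemicentin-1, a large protein of the extracellular matrix, is covered by 77 probe sets, of which the rule used the brightest. That probe set read 9.21 and 9.22 on the day 0 arrays, 10.26 and 10.17 at day 3, and 9.33 and 9.19 at day 4, so that day 4 overlapped day 0 (0.04, SE 0.07, limma adjusted p = 0.659). The other 76 probe sets were not used by the rule, although they were read on the same arrays. In all 76 both day 3 arrays were the highest, with day 3 minus day 0 of 0.34 to 1.38 (median 0.79) and day 4 minus day 3 of −1.23 to −0.30 (median −0.87). Their day 4 minus day 0 had a median of −0.07, and 49 of the 76 met every value limit of the rule. Of the other genes with a further probe set, that of Otogl was also highest at day 3 (5.09, 6.03 and 5.49 on average), and that of Trav14-1 was flat (4.60, 4.54 and 4.56). The further Otogl probe set rose by 0.94 at day 3, beside 2.78 for the brightest, and did not meet the rule.

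**Figure D5:**
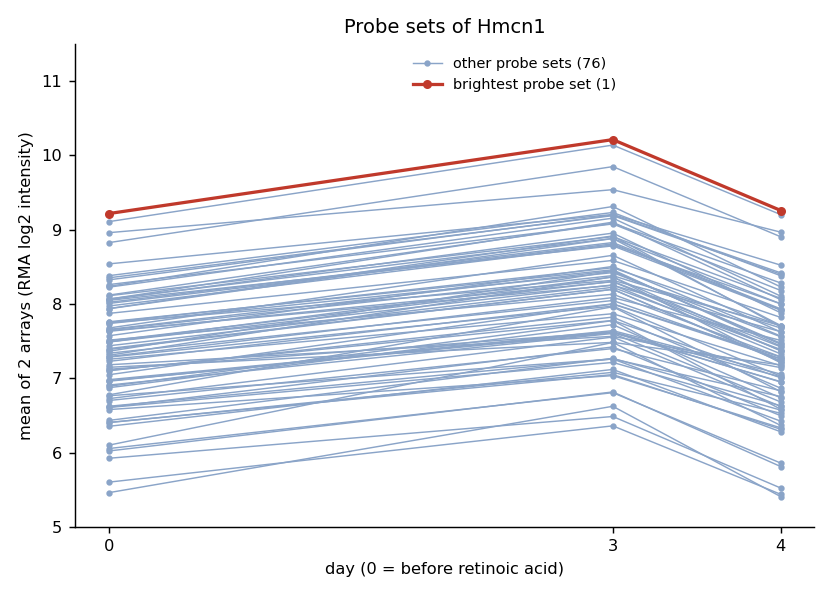
Mean of the 2 arrays of each day (RMA log2 intensity) for the 77 probe sets named Hmcn1. The red line is the brightest probe set, which the rule used, and the blue lines are the other 76. All lines are highest at day 3, and day 4 minus day 0 runs from −0.40 to 0.27.

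Transcription and nuclear regulators had the highest median day 4 minus day 0 of any role (1.93), and 8 of 9 were higher at day 4. Dach1, a co-repressor gene of the retinal determination network, read 5.84 and 6.03 on the day 0 arrays, 9.92 and 10.20 at day 3, and 9.01 and 9.13 at day 4. Zfp804a, a zinc finger gene, read 5.59 and 5.48, 9.30 and 9.40, and 8.07 and 8.08. In both genes the arrays of each day lay far apart from those of the other days. Runx1t1, a co-repressor gene known as ETO, averaged 6.80, 10.14 and 9.41, and the homeobox gene Zfhx4 averaged 7.11, 10.22 and 9.43.

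Meox1, a homeobox gene of somites, averaged 5.83, 8.46 and 7.76 on days 0, 3 and 4, and Barx1, a homeobox gene of stomach and jaw mesenchyme, averaged 7.04, 9.01 and 8.08. Hipk2, a nuclear kinase gene, read 10.60 and 10.47, 11.90 and 11.88, and 11.17 and 11.16. The zinc finger gene Zfp119a averaged 6.22, 7.32 and 6.49. Its day 4 level lay 0.28 above day 0 (limma adjusted p = 0.0250), a call lost without day 0 replicate 1 (0.138) or without day 4 replicate 1 or 2 (0.124 and 0.0502), and with arrays centred on their median (0.13, adjusted p = 0.210). The near copy Zfp119b averaged 5.29, 5.53 and 5.46, and probes can be shared between near copies, so the level of either is uncertain.

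Lhx1, a LIM homeobox gene of the head organizer and of the early kidney, differed from the other regulators in ending lowest. It read 8.07 and 8.33 on the day 0 arrays, 8.79 and 9.20 at day 3, and 7.73 and 7.91 at day 4. Both day 4 arrays lay below both day 0 arrays, and the difference of −0.38 (SE 0.15) did not pass (limma adjusted p = 0.0665). Some relatives of these regulators also had their highest level at day 3. All 3 Zfhx genes measured had both day 3 arrays highest (Zfhx2 averaged 8.18, 8.83 and 8.29, and Zfhx3 9.32, 10.09 and 9.52), as did all 4 Hipk genes. Day 4 minus day 3 was −0.23 for Hipk1 (limma adjusted p = 0.0158), while −0.08 for Hipk3 (0.398) and −0.21 for Hipk4 (0.107) did not pass. Dach2 averaged 5.29, 7.57 and 7.36, with a day 4 minus day 3 that did not pass (0.159), and Meox2 and Barx2 were not highest at day 3.

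Signalling genes inside and at the cell surface were Erbb4, Prkg1, Fam83b, Prex2 and Rasgrp3. Erbb4, a receptor of neuregulins, read 5.79 and 6.03 on the day 0 arrays, 8.27 and 8.44 at day 3, and 7.43 and 7.36 at day 4. The other 3 receptors of its family did not have both day 3 arrays highest, and Egfr averaged 8.66, 9.64 and 9.94, Erbb2 9.27, 9.79 and 9.97, and Erbb3 8.87, 8.07 and 7.78. Prkg1, a kinase activated by cyclic GMP, averaged 5.91, 8.23 and 7.29, and Prex2, an activator of Rac, averaged 7.51, 8.79 and 7.98. Fam83b averaged 6.48, 8.15 and 7.29.

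Rasgrp3, an activator of Ras, read 9.19 and 9.25 on the day 0 arrays, 10.39 and 10.58 at day 3, and 9.38 and 9.33 at day 4. Its day 4 arrays lay just above its day 0 arrays, by 0.14 (SE 0.07), which did not pass (limma adjusted p = 0.169). The 4 other genes of this role were higher at day 4 than at day 0, by 0.46 for Prex2, 0.81 for Fam83b, 1.38 for Prkg1 and 1.48 for Erbb4.

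Metabolic and other enzyme genes included Slc25a21, a mitochondrial carrier of oxodicarboxylates, with 5.47 and 5.27 on the day 0 arrays, 6.68 and 7.01 at day 3, and 5.34 and 5.34 at day 4. Its day 0 and day 4 levels were below 6, where RMA values understate differences. Hsd3b6, an enzyme of steroid synthesis, read 5.06 and 5.21, 7.31 and 7.46, and 6.28 and 5.98. Of the 5 other Hsd3b genes measured, 4 stayed below 6 on every day and Hsd3b7 averaged 7.24, 7.56 and 7.62. Clvs2, a lipid-binding protein of clathrin-coated vesicles, averaged 6.42, 9.12 and 8.32, and the flavin monooxygenase gene Fmo1 averaged 6.27, 7.84 and 6.72. At day 4 Clvs2, Hsd3b6 and Fmo1 were higher than at day 0 (1.90, 0.99 and 0.45), and Slc25a21 and Zup1 did not pass.

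Genes first known from sperm or muscle were Spaca6, a sperm protein needed for fusion with the egg, Acrbp, a binding protein of acrosin, and Lrrc39, a protein of the M-band of muscle. Spaca6 read 7.14 and 6.79, 9.01 and 8.91, and 7.89 and 7.77 on days 0, 3 and 4. Acrbp averaged 7.36, 8.22 and 7.38, and Lrrc39 averaged 5.21, 6.17 and 5.42. Markers of cardiac muscle averaged 7.94 to 7.97, 7.62 to 7.68 and 7.75 to 7.79 on the 3 days, and those of skeletal muscle 6.28 to 6.38, 5.96 to 5.97 and 6.00 to 6.13, so neither was highest at day 3. Day 4 minus day 0 was 0.86 for Spaca6, 0.02 for Acrbp (not passed) and 0.21 for Lrrc39 (limma adjusted p = 0.0212). The call of Lrrc39 was lost without day 0 replicate 1 (0.107) or day 4 replicate 2 (0.0986), with arrays centred on their median (0.06, adjusted p = 0.397) and under moderation that is robust and follows intensity (0.0551).

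Of the non-coding and unnamed transcripts, 5730596B20Rik and B130024G19Rik had day 3 gains close to that of Angpt1. 5730596B20Rik read 5.03 and 5.25 on the day 0 arrays, 9.61 and 9.44 at day 3, and 7.91 and 8.03 at day 4, and B130024G19Rik read 4.91 and 5.24, 9.58 and 9.31, and 8.51 and 8.52. Both were thus below 6 before RA. 5730596B20Rik lies between Hoxa3 and Hoxa4 in the RefSeq table, and day 4 minus day 3 was −1.56 for 5730596B20Rik, against 0.16 for Hoxa3 and 0.14 for Hoxa4. B130024G19Rik lies next to the nuclear receptor gene Nr2f2, which averaged 6.25, 12.05 and 11.95 on days 0, 3 and 4.

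4632427E13Rik was the only peaking gene called lower at day 4 than at day 0. It read 9.66 and 9.67 on the day 0 arrays, 10.84 and 10.79 at day 3, and 9.49 and 9.42 at day 4, a difference of −0.21 (SE 0.06, limma adjusted p = 0.0145). The call was lost without day 0 replicate 1 (0.0502), day 0 replicate 2 (0.0599) or day 4 replicate 2 (0.0789). D130007C19Rik averaged 7.26, 8.39 and 7.63, and 0610040B10Rik averaged 7.06, 8.04 and 7.07. Trav14-1, a variable segment of the T-cell receptor alpha chain, read 4.54 and 5.05, 5.75 and 6.39, and 5.28 and 5.27. It belongs to a family of near-identical segments, its day 3 arrays differed by 0.64, and its other probe set was flat, so its level is uncertain.

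Position on the chromosome was examined for all 64 genes in the RefSeq table. Neighbours were the measured genes with the next start on either side. A neighbour can therefore lie inside a peaking gene, and its probes may read the same transcript, which was not tested. Beside the 2 adjacent pairs named above, 123 neighbours were not among the 64, and 19 of these (15.4%) had both day 3 arrays highest, beside 12% of all genes. They included Fbxo48 next to Plek (day 3 minus day 0 of 0.50, day 4 minus day 3 of −0.70), Ptprk next to Lama2 (1.16 and −0.54) and Mir218-1 next to Slit2 (1.08 and −0.81), which was left out by name.

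Of the 21 genes measured for retinoid response and metabolism, 13 rose and 6 fell at day 3 relative to day 0 (limma). At day 4 relative to day 3, 8 rose and 1 fell. The shares of all genes were 23.8% and 28.1% at the first step and 15.8% and 12.2% at the second. The retinoid gene that fell at the second step was Aldh1a2, which encodes an enzyme that makes RA. It changed by 3.98 at day 3 and by −0.67 at day 4 relative to day 3, just short of the limit. Rarb, the RA receptor beta gene, changed by 5.74 and then by 0.15, and the RA-degrading enzyme gene Cyp26a1 by −2.17 and then by −0.15, and neither later change passed.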

How the data were processed

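RNA of R1 EBs from each of the 3 days was measured on 2 one-colour arrays, grouped and numbered as in the sample titles. The authors imported the scanner files into Partek and deposited log2 values obtained by RMA (background correction, quantile normalization and summary by probe set). The software version and genome build of the arrays are not given in the sources used here. RMA compresses differences of dim probe sets, and changes are relative to the other transcripts on an array. Intensities have no read depth, and the number of arrays limits the precision.

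Of 35557 probe sets, 21789 had 1 gene symbol in the platform annotation, 1621 had several and 12147 had none. For 999 genes with several probe sets the brightest on average was kept, giving 19938 genes. All 6 arrays entered 1 limma fit (version 3.58.1, R 4.3.3; lmFit and eBayes with 3 residual and 4.07 prior degrees of freedom). Tests were two-sided, with Benjamini-Hochberg adjustment over all 19938 genes and a threshold of 0.05. Standard errors (SE) come from this fit. The fit was tested on simulated data. Gene types, neighbours and promoters came from RefSeq tables of GRCm38.p6.

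The peaking genes, the gene lists and the tests were chosen with earlier results of these data known, and the roles, families and printed promoters after the values were seen. Every peaking gene was named at least once. The alternatives were centring, cyclic loess, the mean of probe sets, other limits, a filter on dim genes, trend with robust moderation, fewer arrays and replicate number as a block.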

Additional observations from a re-analysis of the deposited data

Results flagged for a closer look

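Probe sets outside the analysis of named genes also peaked at day 3. Of 12147 probe sets with no gene in the platform annotation, 288 (2.37%) met the value limits of the rule (both day 3 arrays highest, differences of at least 0.7 and a day 3 mean of 6 or more). Of 1621 probe sets with several gene symbols, 4 (0.247%) met them, and of 21789 with 1 gene symbol 147 (0.675%). Of the 19938 genes, each read from its brightest probe set, 91 (0.456%) met them. A gene can hold many probe sets, so 288 is not a count of transcripts. The median day 4 minus day 3 was −0.059 over the unnamed probe sets and 0.047 over the genes. These probe sets carry no gene name here, so what they measure was not identified, and any control probe sets among them were not set apart.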

How the results depend on the processing

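The number of peaking genes depended on the size of both differences: a limit of 0.5 gave 195 genes and a limit of 1 gave 17, in place of 64 at 0.7. With each array left out in turn the rule gave 61 to 81 genes, and 48 of the 64 met it in all 9 other settings at its own limits. Lhx1 met it in the fewest, 6 of 9. At day 4 versus day 0, the number of these genes called higher was 40 to 47 with 1 array left out. The number called lower, 1, was 3 with arrays centred on their median, 2 with an intensity trend and robust moderation, 2 with the day 0 and day 4 arrays only, and 0 to 2 with 1 array left out. Of the 49 calls of single genes, 9 were lost under at least 1 setting and 0 changed direction. Centring on the median moved the share of called genes that were higher to 30.7%, against 50.2% as deposited, for day 4 versus day 0 (31.4% against 45.9% for day 3 versus day 0, and 42.4% against 56.4% for day 4 versus day 3). It shifted the median gene at day 4 minus day 0 to −0.148, and the median peaking gene to 0.527. The calls over all genes for day 4 versus day 3 numbered 5593, and 2728 to 5276 with 1 array left out (2728 without day 3 replicate 1, 3650 without day 3 replicate 2 and 3005 without day 4 replicate 2). The cause of these shifts was not tested.

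Deviations of same-numbered arrays from their day means correlated at only 0.0342 to 0.0834, so the values over all genes showed little pairing by replicate number. Whether same-numbered arrays came from the same experiment is not given in the labels, and these correlations cannot decide it. With replicate number as a block, 48 peaking genes were called higher at day 4 than at day 0, 46 of them shared with the fit without the block (Ache and Tll1 were lost), and 2 lower, and 10251 genes in all, in place of 10260.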

Other observations

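Genes that met the limits of the rule but were left out by name had some of the steepest peaks. Slc4a1, the anion exchanger of the red cell membrane, read 6.84 and 6.78 on the day 0 arrays, 10.5 and 10.5 at day 3, and 8.0 and 7.94 at day 4. Alas2, the first enzyme of haem synthesis in red cells, read 7.23 and 7.30, 9.61 and 9.52, and 7.48 and 7.23, so that its day 4 and day 0 arrays overlapped. Klf1, a transcription factor gene of the erythroid lineage, read 6.62 and 6.56, 7.96 and 7.73, and 6.66 and 6.64. Among the 16 symbols starting with Mir, Mir19b-1 read 6.31 and 6.42 on the day 0 arrays, 7.59 and 7.58 at day 3, and 5.85 and 6.03 at day 4, with both day 4 arrays below both day 0 arrays.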
